A study of Mus musculus with 6 samples.

Results

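The 6 genes described here carry hexoses across the membranes of the kidney proximal tubule: Slc5a2, Slc5a1, Slc5a10, Slc2a5, Slc2a2 and Slc2a1. Accessible chromatin was assigned to a gene where the strongest summit of a region lay in its body or within 20 kb of it (GRCm38, GENCODE M21), and 72 of 99359 regions met this rule. Of the 72, 20 belonged to Slc5a10, 16 each to Slc2a2 and Slc2a5, 9 to Slc5a2, 7 to Slc2a1 and 4 to Slc5a1. By position, 10 were promoter regions (summit within 1 kb of an annotated start of the gene), 7 lay within 1 kb of the start of another gene, and 55 were distal.

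Accessibility was measured by ATAC-seq in 6 libraries; in this assay a transposase inserts sequencing adapters where DNA is exposed. Each library was made from 3 hand-dissected S1 segments, the first part of the proximal tubule, of male wild-type C57BL/6 mice aged 7 weeks. In 3 libraries the mice had had a sham operation (Sham) and in 3 libraries 1 kidney had been removed by unilateral nephrectomy (UNx), both 24 h earlier. Whether the libraries came from separate mice is not stated in the labels, so p-values measure the spread between these libraries, which may be technical.

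The proximal tubule takes glucose from the filtrate at its apical membrane with sodium-glucose cotransporters and releases it to the blood side through facilitative carriers of the GLUT family. In the S1 segment the apical step is known to be carried mainly by SGLT2, the product of Slc5a2, and the basolateral step by GLUT2, the product of Slc2a2. SGLT1, from Slc5a1, and GLUT1, from Slc2a1, are known as the carriers of the later segments and of other cells, while GLUT5 (Slc2a5) carries fructose and SGLT5 (Slc5a10) mannose and fructose.

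The lists held 77355 to 100999 peaks per library, with the fewest in Sham 2, and the sequencing depth is unknown because they hold no read counts. To equalise the lists, the 77355 peaks of highest −log10 q were kept from each, and the level of a region is its percentile rank within a list, near 100 for the strongest peak and 0 where no kept peak overlapped it. Between 52 and 58 of the 72 regions were present in a list. All 12 markers of the S1 segment had a promoter region in all 6 lists, and their summed percentiles ran from 1037.0 to 1046.5 in Sham and from 1031.7 to 1052.6 in UNx libraries. Regions were also found at 8 of 10 markers of the S2 and S3 segments, with sums of 518.0 to 546.2 in Sham and 444.6 to 508.4 in UNx libraries. Of the non-epithelial markers, 9 of 14 had one, with sums of 172.3 to 190.2 in Sham and 119.9 to 148.4 in UNx libraries, and the markers Ptprc, Csf1r, Pdgfrb, Tagln and Acta2 were at 0. Both of these sums were lower in every UNx than in every Sham library. For the S2 and S3 markers that separation rested on Slc7a12: without it, left out after its values were seen, the sums were 497.8 to 509.0 in Sham and 444.6 to 506.9 in UNx libraries, and 3 of the 8 tested markers had a higher mean after UNx. The S1 list holds Slc5a2 and the S2 and S3 list Slc5a10; without them the sums were 951.4 to 956.2 in Sham against 942.6 to 964.4, and 438.0 to 469.3 against 368.3 to 435.9. For other nephron segments, 8 of 12 markers had one, with sums of 348.1 to 393.8 and 338.8 to 423.7.

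The start of Slc5a2 (ENSMUSG00000030781, chromosome 7, 128265657 to 128272430, plus strand) ranked among the highest of the 6 by −log10 q. Its promoter region (128265274 to 128265915), with the summit 43 bp upstream of the annotated start, ranked at 93.3, 90.3 and 83.9 in Sham 1, 2 and 3 and at 89.1, 94.7 and 88.2 in UNx 1, 2 and 3. The operations overlapped, and the difference was 1.52 percentile points (95% interval ± 5.45; limma adjusted p = 0.802). A separate region began shortly past the start, with its summit in an intron 556 bp downstream, and ranked at 87.1, 87.6 and 82.8 in the Sham and at 92.3, 95.4 and 88.4 in the UNx group. All UNx values there lay above all Sham values, but the difference of 6.22 points did not pass the test (limma unadjusted p = 0.0210, adjusted p = 0.187). The leading distal region of Slc5a2, in intron 4 at 1914 bp from the start, averaged 71.2 ± 8.91 in the Sham and 71.3 ± 12.2 in the UNx group (SD, n = 3 per group). In dissected tubules a region open in fewer cells and one less open in each cell cannot be told apart.

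Slc5a1 was the least accessible of the 6 (ENSMUSG00000011034, chromosome 5, 33104219 to 33162870, plus strand). Its promoter region, 74 bp past the start in exon 1, was a peak of Sham 1 alone, at percentile 11.5, and was found in no other list, even among all deposited peaks. The only region of its 98.7 kb window present in at least 3 lists lay in intron 6, 39981 bp from the start. That region ranked at 43.0, 22.0 and 33.8 in the Sham and at 44.4, 37.7 and 21.1 in the UNx group, with a difference of 1.49 points (95% interval ± 22.4; limma adjusted p = 0.960). A neighbouring intron region, at 39071 bp and close to the start of the pseudogene 5033423K11Rik, was a peak of Sham 2 (22.0) and Sham 3 (21.6) and of no UNx library.

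The promoter region of Slc2a5 (ENSMUSG00000028976, chromosome 4, 150119283 to 150144169, plus strand) had its summit in exon 2, 683 bp downstream. Its percentile was 67.5, 73.6 and 74.8 in Sham and 77.3, 85.9 and 85.6 in UNx libraries. The UNx values were all above the Sham values, by 10.96 points on average, and the difference did not pass the test (limma unadjusted p = 0.0205, adjusted p = 0.185). For Slc5a10 (ENSMUSG00000042371, chromosome 11, 61672781 to 61720826, minus strand) the main promoter region lay 74 bp upstream of the longer transcript, at 80.0, 76.9 and 78.8 in Sham and 76.3, 78.1 and 72.5 in UNx libraries (limma adjusted p = 0.751).

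Among the remaining promoters Slc2a1 stood highest (ENSMUSG00000028645, chromosome 4, 119108711 to 119137983, plus strand). Its promoter region, with the summit 3 bp past the start, ranked at 91.5, 90.9 and 85.5 in the Sham and at 91.3, 92.1 and 94.9 in the UNx group (limma adjusted p = 0.410). The promoter region of Slc2a2 (ENSMUSG00000027690, chromosome 3, 28697903 to 28731359, plus strand), 56 bp past the start in exon 1, varied more, with 79.0, 53.8 and 64.0 in Sham and 75.7, 60.8 and 67.2 in UNx libraries (limma adjusted p = 0.893). Library 2 was the lowest in both operations.

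**Figure D1:**
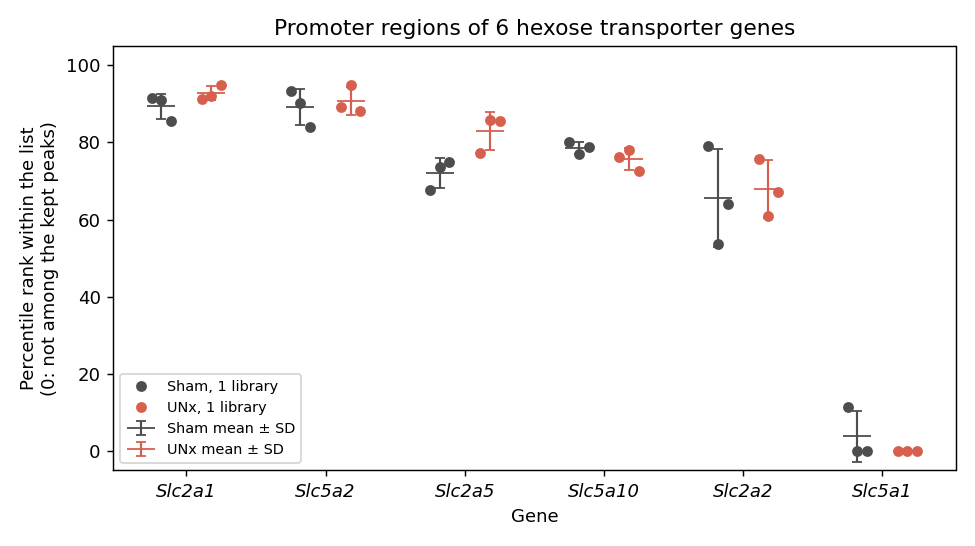
Percentile rank (vertical axis) of the promoter region of each gene (horizontal axis) in the 3 Sham and 3 UNx libraries, as points, with the mean ± SD of each operation. Slc2a1 and Slc5a2 sit near 90 in both operations, and Slc5a1 is at 0 in all libraries but Sham 1.

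Over the 6 libraries the promoters thus ordered as Slc2a1 (91.1 ± 3.07), Slc5a2 (89.9 ± 3.86), Slc2a5 (77.5 ± 7.19), Slc5a10 (77.1 ± 2.60), Slc2a2 (66.7 ± 9.40) and Slc5a1 (1.92 ± 4.69; percentile rank, SD, n = 6). Slc2a1 exceeded Slc5a2 in 4 of 6 libraries and Slc2a5 exceeded Slc5a10 in 3 of 6, so neither pair differed beyond its spread. Slc5a2 was above Slc2a5, and Slc5a10 above Slc2a2, in 6 of 6 libraries, although the ranges of each pair overlapped. This order holds for ranks by −log10 q and changes with the measure. In deposited fold enrichment, a ratio over background, the Slc5a10 promoter exceeded that of Slc5a2 in every library. The values were 8.42 to 11.3 at Slc5a10 and 6.89 to 8.66 at Slc5a2. Slc5a10 also exceeded Slc2a5 (5.62 to 7.77) in every library by that measure. Among the 13795 protein-coding genes with a promoter region, 64.7% ranked below Slc2a1, 61.4% below Slc5a2, 36.3% below Slc2a5, 35.8% below Slc5a10, 25.2% below Slc2a2 and 1.60% below Slc5a1.

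To show sequences from the top and the bottom of this order, 3 promoters are printed, each as the 250 bases before the RefSeq start (GRCm38.p6), 5′ to 3′ on the gene's strand. RefSeq promoter entries were found for 5 of the 6 genes, all but Slc5a2. Capitals mark matches, on either strand, to GGGCGG (GC box), ACGTGC (hypoxia response element) or CACGTG (E-box).
Slc2a1 promoter, chr4:119108495-119108744, plus strand: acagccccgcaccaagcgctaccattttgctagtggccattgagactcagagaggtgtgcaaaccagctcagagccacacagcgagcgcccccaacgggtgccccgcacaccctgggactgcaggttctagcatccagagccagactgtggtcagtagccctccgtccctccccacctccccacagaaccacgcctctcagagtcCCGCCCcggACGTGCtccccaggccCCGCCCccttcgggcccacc
Slc2a2 promoter, chr3:28697653-28697902, plus strand: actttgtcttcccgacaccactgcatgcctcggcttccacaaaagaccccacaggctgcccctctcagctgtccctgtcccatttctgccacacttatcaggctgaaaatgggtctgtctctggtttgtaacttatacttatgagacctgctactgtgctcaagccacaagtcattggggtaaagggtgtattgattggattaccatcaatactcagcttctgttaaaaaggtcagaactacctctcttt
Slc5a1 promoter, chr5:33103969-33104218, plus strand: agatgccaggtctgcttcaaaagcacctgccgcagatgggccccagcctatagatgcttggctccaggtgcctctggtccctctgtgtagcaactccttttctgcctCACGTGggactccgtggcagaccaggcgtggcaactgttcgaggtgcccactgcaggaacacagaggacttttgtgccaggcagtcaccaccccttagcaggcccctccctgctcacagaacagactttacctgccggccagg

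The Slc2a1 sequence was 66.4% G and C and held 2 GC boxes with 1 hypoxia response element between them. The Slc2a2 sequence was 47.2% G and C and held none of these strings. That of Slc5a1, whose promoter region had no peak in 5 of the 6 lists, was 60.0% G and C with 1 E-box. Base composition did not follow the order, as Slc5a1, the lowest in rank, was richer in G and C than Slc2a2. The matching sequence of the longer Slc5a10 transcript was 45.6% G and C with none of these strings. That of Slc2a5 was 66.4% with 3 GC boxes, but it lies before the ranked Slc2a5 region and does not overlap it. The ranked Slc2a5 region was 52.2% G and C. Over all 32851 RefSeq promoter entries, searched at their full 300 bases, 35.7% held a GC box, 7.15% an E-box and 5.92% a hypoxia response element. A match of letters is a description of the sequence and not a bound site.

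The genes were covered unevenly. Counting all regions present in at least 3 lists, Slc2a5 had 1.85 per 10 kb of its window, Slc5a10 1.82, Slc2a2 1.77, Slc5a2 1.50, Slc2a1 0.866 and Slc5a1 0.101, against a median of 0.484 over protein-coding genes. Of distal regions alone there were 1.70 per 10 kb at Slc2a5, 1.63 at Slc2a2, 1.59 at Slc5a10, 0.641 at Slc5a2, 0.577 at Slc2a1 and 0.101 at Slc5a1. In 4 of the genes a distal region outranked every promoter region: 5 did so at Slc2a2, 3 at Slc5a10, and 1 each at Slc2a5 and Slc5a1. The leading distal region of Slc2a2, 39339 bp from the start and downstream of the gene, averaged 91.2 ± 4.43 in the Sham and 90.4 ± 2.46 in the UNx group, that of Slc2a5, in intron 6, at 90.0 ± 5.91 and 91.4 ± 1.32, and that of Slc5a10, 10889 bp from its nearer start, at 92.9 ± 0.888 and 89.5 ± 2.94 (SD, n = 3 each). These 3 differed by less than 4 points between the operations (limma adjusted p = 0.892, 0.817 and 0.402). The Slc2a2 region lay within the transcript 1700112D23Rik, 4998 bp from its start, and the Slc5a10 region within the gene Fam83g. Such shared regions also count in the densities, and assignment to the hexose genes is by position only.

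**Figure D2:**
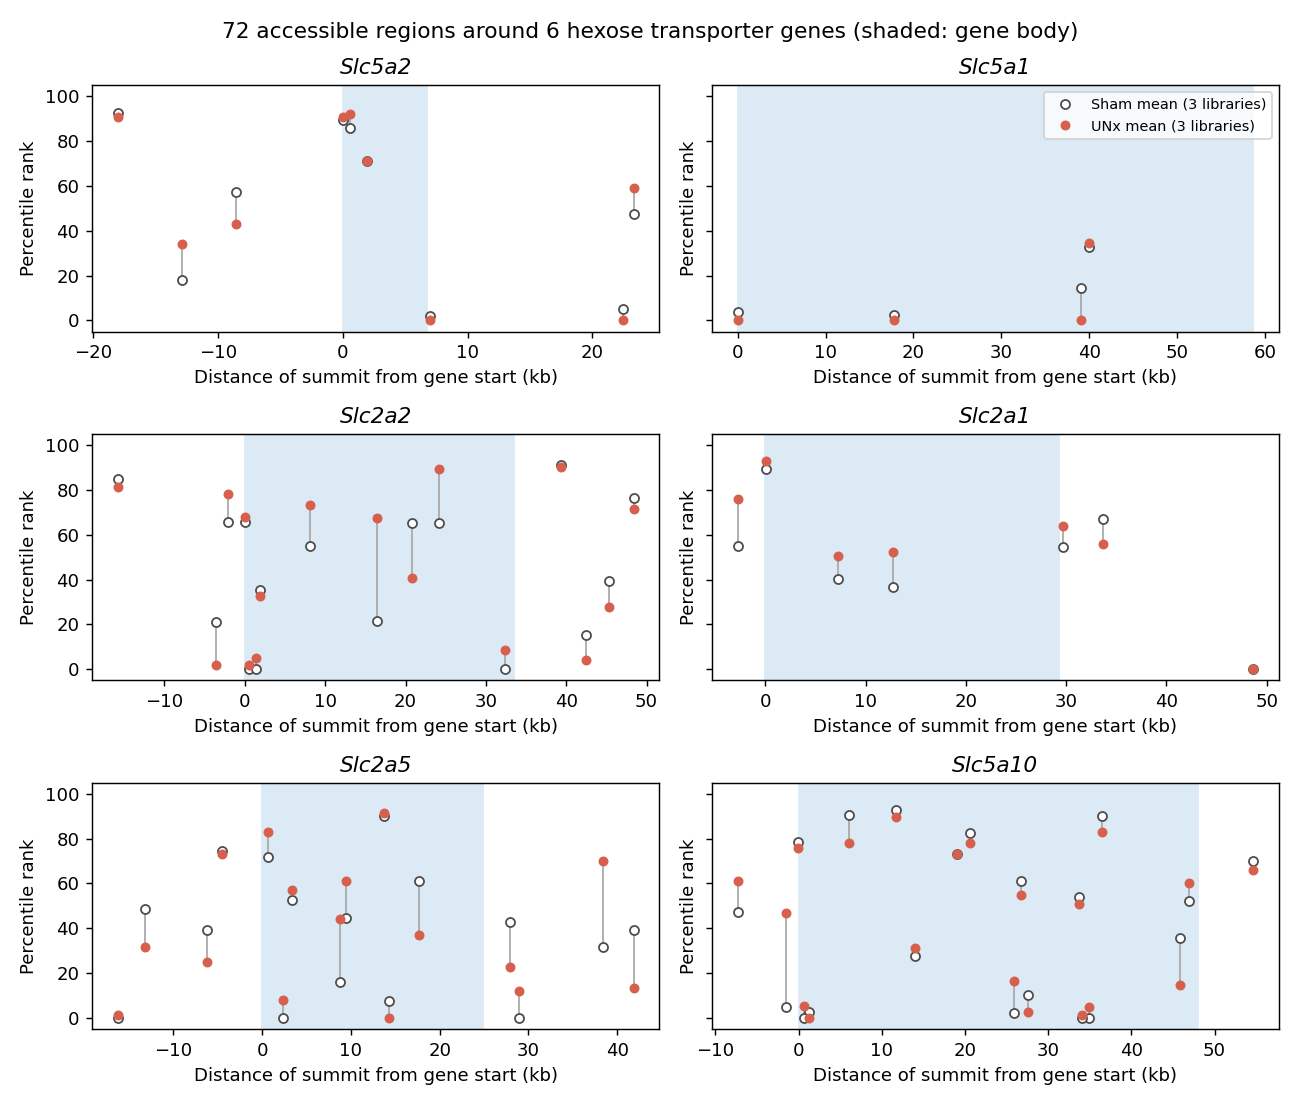
Mean percentile rank (vertical axis) in 3 Sham libraries (open points) and 3 UNx libraries (filled points) of all 72 regions, by distance of the summit from the gene start in kb (horizontal axis; shaded, gene body). Grey lines join the 2 means of a region; the longest upward lines are at 16.4 kb in Slc2a2, 38.4 kb at Slc2a5 and upstream of Slc5a10.

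After UNx, 2 regions passed the test, both higher and both in introns of Slc2a2. The first lay in intron 4 (28714048 to 28714665), 16428 bp from the start. Percentiles there were 38.0, 13.6 and 13.4 in the Sham and 66.4, 62.0 and 73.4 in the UNx group, with a mean of 21.7 ± 14.2 and 67.3 ± 5.77 (SD, n = 3 each). The lowest UNx value was above the highest Sham value by a wide gap, and the difference was 45.6 points (SE 9.38; limma unadjusted p = 1.19e-04, adjusted p = 0.0367). In the authors' lists its peak was 281 to 330 bp wide in Sham and 449 to 618 bp in UNx libraries.

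The other lay in intron 8 (28721205 to 28722401), 24138 bp from the start, and covered the whole exon before that intron. It ranked at 55.9, 66.04 and 73.9 in the Sham and at 84.1, 92.2 and 91.9 in the UNx group. Again the operations did not overlap, and the difference was 24.1 points (SE 4.84; limma unadjusted p = 9.2e-05, adjusted p = 0.0352). In Sham 1 and in UNx 1 this region was 2 separate peaks, and in the other 4 libraries 1 interval. The antisense transcript 1700112D23Rik runs through this stretch of Slc2a2 on the other strand, so neither region can be assigned to one of the pair.

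Both calls were lost under most other settings, while the differences stayed upward in each. For the intron 4 region the difference ran from 41.5 to 53.8 points over the alternatives that give percentile points. Its limma adjusted p ran from 0.0116 to 0.163, and 4 of the 15 alternatives that refit the test kept the call. For the intron 8 region the difference ran from 19.5 to 59.0 points. Its limma adjusted p ran from 0.00882 to 0.222, and 3 of 16 kept the call. A point spans fewer peaks in a shorter list, and the 59.0 was with the 20000 strongest peaks. An overlap of at least 50%, counted in both, left the differences as they were. With ranks corrected for G and C content the differences were 46.4 and 25.2 points (limma adjusted p = 0.0779 for both). Without Sham 1 the intron 4 region was called (limma adjusted p = 0.0432), but not without Sham 2 (0.0796), Sham 3 (0.108), UNx 1 (0.120), UNx 2 (0.0559) or UNx 3 (0.107). The intron 8 region lost its call without any 1 of the 6 libraries, with limma adjusted p of 0.0823, 0.0692 and 0.0520 without Sham 1, 2 and 3 and 0.0923, 0.0702 and 0.0984 without UNx 1, 2 and 3. The lower sum of the non-epithelial markers in UNx libraries, given above, moves with these differences, as does that of the S2 and S3 markers with Slc7a12 included, and their part in them was not tested.

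The 200 bases around the strongest summit of both regions are shown because they carry the only calls among the 6 genes (GRCm38.p6, plus strand, which is that of Slc2a2). Capitals mark matches on either strand to the strings given above and to CAAAGTCCA (HNF4), TCAAAGGTC (direct repeat shared by HNF4 and PPARs), TGANTCA (AP-1), CCANNAGGG (CTCF) and TATAAA (a core promoter box).
Slc2a2 intron 4, chr3:28714231-28714430: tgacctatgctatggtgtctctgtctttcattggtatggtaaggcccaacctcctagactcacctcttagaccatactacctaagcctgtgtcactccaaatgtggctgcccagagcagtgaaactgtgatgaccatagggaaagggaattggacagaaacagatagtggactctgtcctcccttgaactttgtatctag
Slc2a2 intron 8, chr3:28721941-28722140: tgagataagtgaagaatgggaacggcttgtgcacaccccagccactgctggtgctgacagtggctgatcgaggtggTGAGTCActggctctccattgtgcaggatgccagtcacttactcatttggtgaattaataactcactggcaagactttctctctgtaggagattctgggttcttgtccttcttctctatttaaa

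The intron 4 sequence held none of these strings. The intron 8 sequence held 1 AP-1 string. Shares were counted in windows of 300 bases centred on the summit, longer than the 200 printed, and an AP-1 string was in 10.1% of all 99359 windows and in 11 of the 72 described here. The longer window of the intron 8 region also held an E-box and an overlapping hypoxia response element, 137 and 136 bases before the summit. The string of HNF4, a known regulator of proximal tubule genes, was matched around 3 of the 72 summits, and around 2.58% of all regions.

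Elsewhere in Slc2a2 the values went both ways. An intron region 8050 bp from the start ranked at 51.1, 55.1 and 59.1 in the Sham and at 67.4, 72.9 and 79.7 in the UNx group, without overlap (limma unadjusted p = 0.00775, adjusted p = 0.128). A region on an exon at 20795 bp, between the 2 called ones, had the opposite order, with 67.7, 65.3 and 62.5 in Sham and 52.5, 50.8 and 18.4 in the UNx group (limma unadjusted p = 0.0131, adjusted p = 0.155). Upstream, a region 2108 bp from the start went from 65.5 ± 9.24 to 78.0 ± 6.47 with overlapping values (SD, n = 3 each; limma adjusted p = 0.248). Of the 13 tested regions of Slc2a2, 5 had a higher and 8 a lower mean after UNx.

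The 4 regions of next smallest p did not pass the test. Downstream of Slc2a5, in intron 5 of its neighbour Slc2a7, which encodes the hexose carrier GLUT7, a region 38388 bp from the Slc2a5 start ranked at 40.9, 10.5 and 44.0 in the Sham and at 71.9, 64.8 and 73.8 in the UNx group. Its difference of 38.4 points had a limma adjusted p of 0.0532, which was 0.0477 with a −log10 q of at least 5 and 0.0208 with normal scores. These 2 were the only passes among 16 alternatives. The limma adjusted p was 0.132 with all deposited peaks, 0.136 by fold enrichment, 0.123 with GC-corrected ranks and at most 0.163. At Slc2a1, a region 2783 bp upstream of the start ranked at 61.5, 55.5 and 47.2 in the Sham and at 84.8, 68.5 and 75.0 in the UNx group (difference 21.3 points, SE 6.34; limma adjusted p = 0.0961).

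At Slc5a10 the remaining 2 went in opposite directions. A region 1512 bp upstream of the start was absent from Sham 1, ranked at 0.166 in Sham 2 and 14.1 in Sham 3, and stood at 39.7, 42.9 and 58.6 in UNx libraries (difference 42.3 points, SE 10.9; limma adjusted p = 0.0662). Among all deposited peaks it was present in all 6 lists. An intron region 5192 bp from the nearer start ranked at 88.4, 91.1 and 92.1 in the Sham and at 74.9, 82.7 and 76.7 in the UNx group, a difference of -12.4 points (SE 3.07; limma adjusted p = 0.0602). Without UNx 2 that difference was -14.7 and passed the threshold (limma adjusted p = 0.0478), the only pass among 18 alternatives. Ranked by fold enrichment it was -2.47 (limma adjusted p = 0.772). The deposited fold enrichments of that intron region overlapped, at 13.6 to 18.4 in Sham and 12.0 to 18.7 in UNx libraries. In ranks by −log10 q the operations did not overlap at any of these 4 regions.

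**Figure D3:**
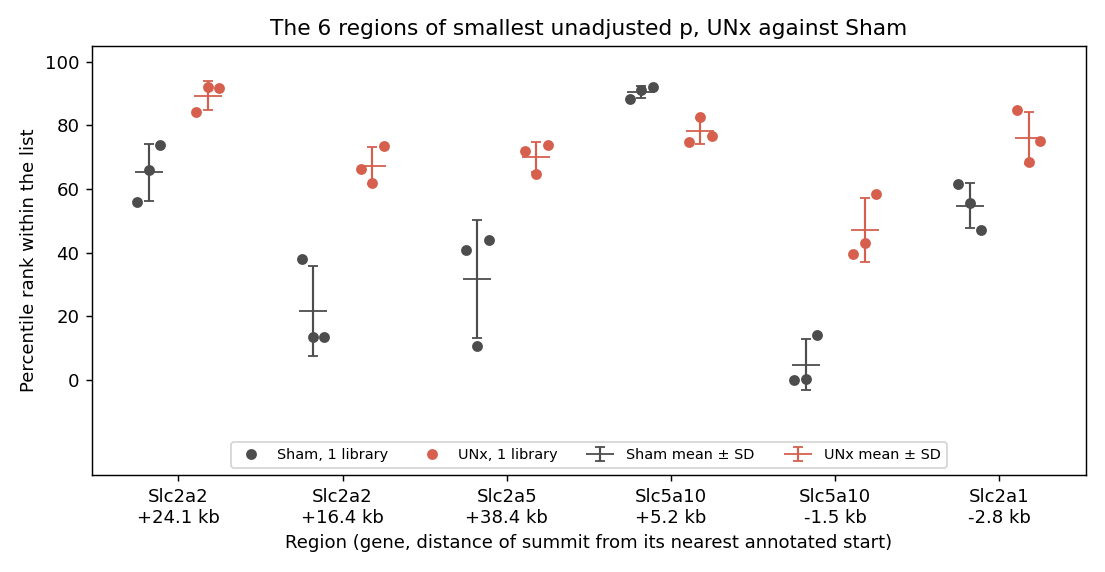
Percentile rank (vertical axis) in the 3 Sham and 3 UNx libraries of the 6 regions of smallest unadjusted p (horizontal axis, gene and distance of the summit in kb), as points with mean ± SD. The UNx points lie above the Sham points at 5 of the regions and below them at the Slc5a10 region 5.2 kb from the start.

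The sequences of the Slc2a1 and Slc5a10 regions are shown to set these beside the called ones (200 bases around the summit, GRCm38.p6, plus strand, capitals as before).
Slc2a1 upstream, chr4:119105828-119106027: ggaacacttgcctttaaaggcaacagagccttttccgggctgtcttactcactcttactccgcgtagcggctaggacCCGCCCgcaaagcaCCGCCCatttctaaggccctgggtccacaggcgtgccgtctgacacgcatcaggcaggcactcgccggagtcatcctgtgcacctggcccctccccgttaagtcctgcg
Slc5a10 upstream, chr11:61722211-61722410: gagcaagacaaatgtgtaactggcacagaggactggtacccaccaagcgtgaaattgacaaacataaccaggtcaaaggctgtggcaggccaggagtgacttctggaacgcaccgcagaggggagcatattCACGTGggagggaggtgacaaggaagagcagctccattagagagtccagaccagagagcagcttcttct
Slc5a10 intron, chr11:61714705-61714904: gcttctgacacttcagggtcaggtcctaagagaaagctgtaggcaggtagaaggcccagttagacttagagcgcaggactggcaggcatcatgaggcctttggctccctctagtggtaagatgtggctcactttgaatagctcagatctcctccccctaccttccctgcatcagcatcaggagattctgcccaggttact

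The Slc2a1 sequence, 61.5% G and C, held 2 GC boxes, a string found around 8.49% of regions away from starts and 54.0% of regions near them. The upstream Slc5a10 sequence held 1 E-box, and the intron sequence of Slc5a10 none of the strings. In the windows of 300 bases the upstream Slc5a10 region also held 2 AP-1 strings and the Slc2a1 region 1.

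Counted together, 2 of the 55 tested regions were called (3.64%), against 0.788% of the 74781 tested regions of the whole genome (589 regions). At an unadjusted p under 0.05 there were 14 (25.5%), 10 higher and 4 lower after UNx, against 18.6% of all tested regions. UNx values lay wholly above Sham values at 9 regions (16.4%, against 12.0% of all tested) and wholly below at 6 (10.9%, against 11.7%). The median difference was -0.21 points over the 55 regions, 2.88 over the 6 tested promoter regions and -1.41 over the 45 tested distal ones, against -0.01 over all tested regions. These shares describe the regions of 6 genes and were given no test of their own. Tested on their own, the 95% intervals of the regions were ± 4.27 to ± 26.0 points (median 15.7). Smaller differences were not detectable in 3 libraries against 3. Larger ones could also fall short, because these intervals are unadjusted and calls were adjusted over all tested regions. The Slc5a10 region 1512 bp upstream of the start, at 42.3 ± 22.8 points (95% interval), was not called.

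**Figure D4:**
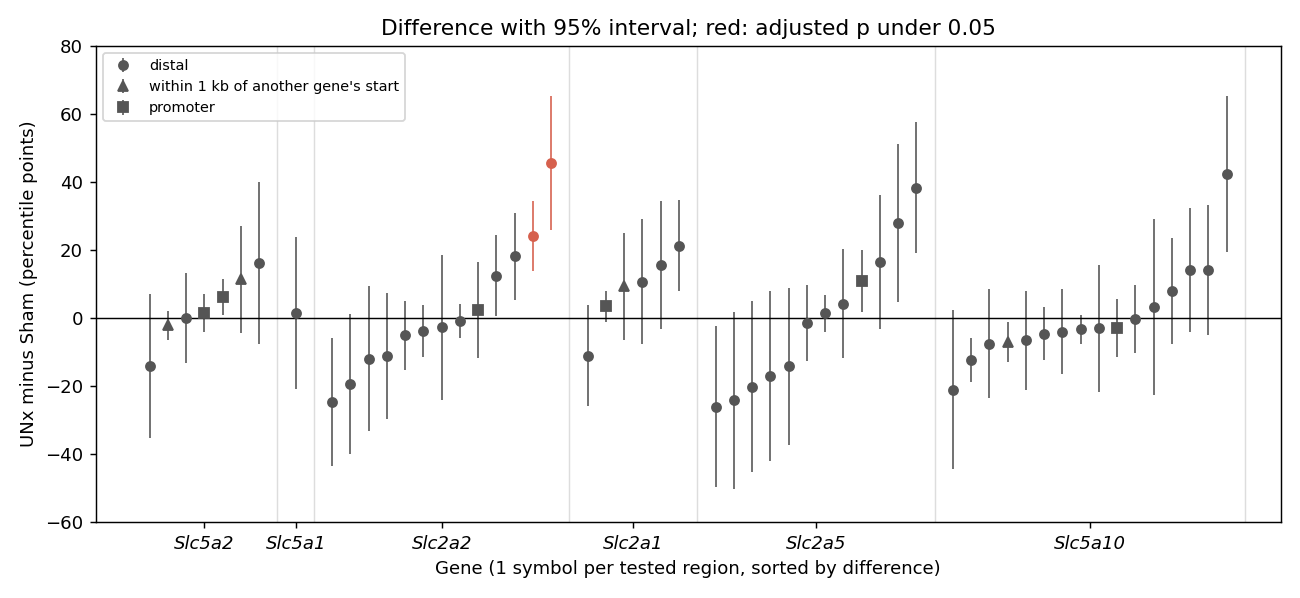
UNx minus Sham difference in percentile points (vertical axis) with its 95% interval for each of the 55 tested regions, grouped by gene and sorted by size (horizontal axis). The 2 called regions, in red, are at the upper end of Slc2a2, and the intervals of most other regions span 0.

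Presence in the lists was counted without a test. None of the 72 regions was found in every list of one operation while missing from the other, against 1.98% of all 99359 regions. With so small a share over all regions, a count of 0 among 72 is not read as a trait of these genes. Of the 72, 46 (63.9%) were in all 6 lists and 14 (19.4%) in a single list, against 53.4% and 16.3% of all regions. In 3 regions, at Slc5a1 (39071 bp), Slc2a2 (32383 bp) and Slc2a5 (28887 bp, near the start of Slc2a7), peaks were in 2 lists of one operation and 0 of the other. Both called Slc2a2 regions were present in all 6 lists.

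**Figure D5:**
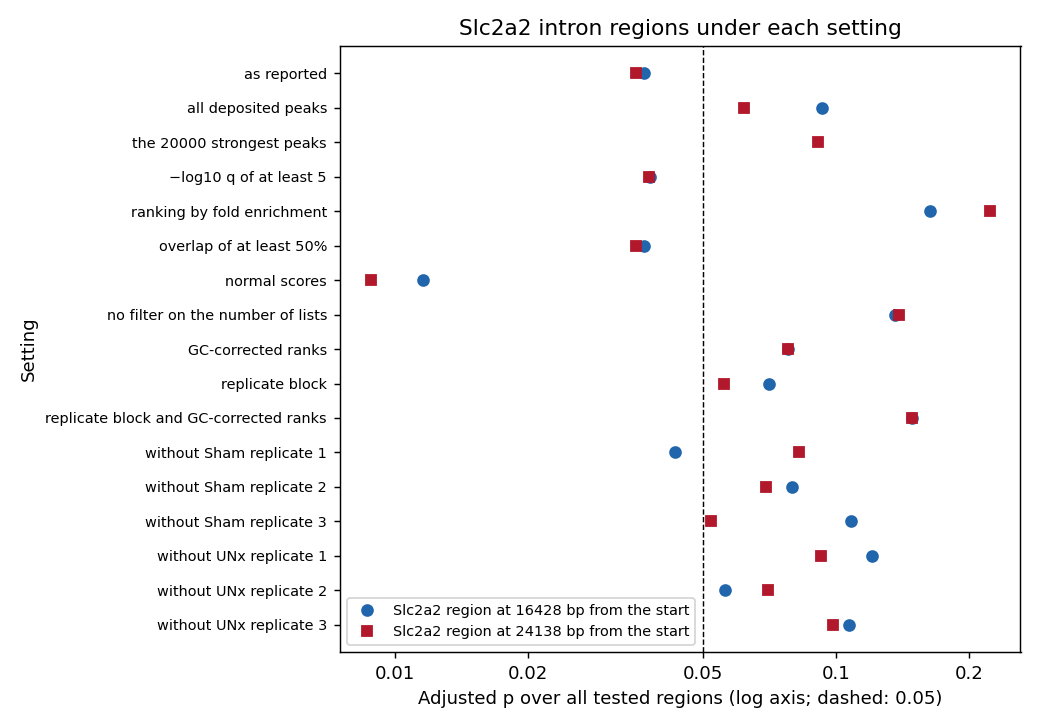
Adjusted p over all tested regions (horizontal log axis; dashed line, 0.05) of both called Slc2a2 intron regions under each setting that refits the test (vertical axis). Points left of the line are calls: beside the reported fit, 4 of 15 alternatives that refit the test for the region at 16428 bp and 3 of 16 for that at 24138 bp.

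The wider hexose pathway was read at 1 promoter region per gene. Of 17 other hexose and related carriers of the Slc2a, Slc5a and Slc50a families, 14 had a promoter region and 12 were tested. None was called by limma, and 3 had an unadjusted p under 0.05, against 13.2% of the tested promoter regions of protein-coding genes (1740 regions). Slc2a9, the urate and hexose carrier GLUT9, ranked at 83.2 in the Sham and 92.2 in the UNx group (SE of the difference 2.71; limma adjusted p = 0.102), and Slc2a4, the insulin-regulated carrier GLUT4, at 85.2 and 73.8 (SE 3.98; limma adjusted p = 0.141). Slc2a10, Slc5a4a and Slc5a4b had no promoter region in any list.

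Of 16 enzymes that take hexoses into metabolism, 14 were tested and 0 called by limma, with 2 at an unadjusted p under 0.05 and 9 of 14 lower after UNx. Khk, which phosphorylates fructose, ranked at 92.6 in the Sham and 85.4 in the UNx group (limma adjusted p = 0.169), and Sord, which interconverts sorbitol and fructose, at 86.3 and 76.5 (limma adjusted p = 0.151). The hexokinase gene Hk3 had no promoter region in any list. Of 18 partners and regulators, 17 were tested and 0 called by limma, with 4 at an unadjusted p under 0.05. Mlx, a partner of the carbohydrate response factor, ranked at 55.7 in the Sham and 74.0 in the UNx group (limma adjusted p = 0.132), while Mlxipl, which encodes that factor, ranked at 74.3 and 61.1 (limma adjusted p = 0.212). Hif1a, which encodes a hypoxia response factor, stood at 98.6 and 95.3 (limma adjusted p = 0.234), the kinase gene Sgk2 at 82.0 and 89.7 (limma adjusted p = 0.137), and Pdzk1ip1, whose product MAP17 activates SGLT2, at 89.2 and 85.9 (limma adjusted p = 0.499). Hnf4a, which encodes a transcription factor of proximal tubule genes, stood at 86.7 and 87.7 (limma adjusted p = 0.872). The list medians were 0.58, -1.10 and -0.26 points, against -0.19 over the 13203 tested promoter regions of protein-coding genes, of which 52 were called.

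By distance over the 6 percentile ranks, the promoters nearest to that of Slc5a2 among 13794 were those of Apba3 (4.503 points) and Eps8l2 (4.56), and to that of Slc2a1 those of Klf2 (2.09) and Tollip (2.31). Slc2a2 had its nearest at Tmco4 (9.62) and Prss8 (11.4), Slc2a5 at Slc28a1 (5.46) and Polr2m (6.28), and Slc5a10 at Gtf2ird1 (4.01) and Crls1 (5.39). For Slc5a1, a peak in 1 list, they were Pecam1 (0.760) and Crispld1 (1.01), which were also nearly absent.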

How the data were processed

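ATAC-seq was done on 6 libraries. The submitters' processing notes name cutadapt 3.4, Bowtie, SAMtools, Picard, MACS2 2.2.7.1 and the build mm10; settings and the filter on the lists are not given in the sources used here. The authors deposited 1 narrowPeak list per library, with a display score, a fold enrichment (a ratio over background), −log10 p and −log10 q values and the summit position per summit. All intervals fell within GRCm38 chromosomes. Only these lists were used, and none holds read counts.

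A peak was a distinct interval with its strongest summit. The 77355 strongest peaks per list, ordered by deposited −log10 q, were ranked, and intervals sharing at least 1 bp were merged; a region took its strongest peak in each list. Regions in at least 3 of 6 lists were tested with limma 3.58.1 (R 4.3.3; two-sided, variance trend, robust; p adjusted by Benjamini-Hochberg over all 74781 regions, threshold 0.05). The code was tested on simulated data. Members and related lists were chosen with earlier results of these data known. Named by rule were the promoter and leading distal region of each gene, called regions, regions of 1 operation only, the 6 of smallest p, the 2 genes of smallest p in each related list with Pdzk1ip1, Khk and Hnf4a, and the 2 promoters nearest to each member; some items this rule names are not reported here, and other members were singled out after their values were seen. Alternatives covered peak number, −log10 q, ranking, overlap, scale, filter, G and C content, replicate block, windows and each library left out.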

Additional observations from a re-analysis of the deposited data

How the results depend on the processing

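All alternatives were planned. The 2 called regions became 0 with every deposited peak, with the 20000 strongest, by fold enrichment, with no minimum number of lists, with GC-corrected ranks, and with the replicate block alone or with GC correction, and from 0 to 1 when 1 library was left out. Over the whole genome, where 589 were called, there were then 22, 2, 3, 2, 2, 56 and 0 in the first 7 of these settings; the cause was not tested. With a −log10 q of at least 5 and with normal scores there were 3. The 1 region called without UNx 2 was the Slc5a10 intron region at 5192 bp and not one of Slc2a2. Regions in all lists of 1 operation only, 0 as reported, were 2 with all deposited peaks and with a −log10 q of at least 5, 1 with the 20000 strongest peaks and with ranking by fold enrichment, and 0 to 2 with 1 library left out, where fewer lists must agree. The median difference over the regions (-0.21) was 2.63 with all deposited peaks, -4.87 with the 20000 strongest, -1.28 with GC-corrected ranks, with and without the block, 1.50 with a flank of 5 kb, and from -3.11 to 1.43 with 1 library left out. With the 20000 strongest only 16 of the regions were tested, and a point spans fewer peaks. None of the related promoters was called under any alternative run.

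Differences that changed sign were small and uncalled. With ranking by fold enrichment they were -0.13 (Slc5a2 promoter), -2.21 (Slc5a2, 1914 bp), -3.89 (Slc2a2 promoter), -0.89 (Slc2a1 promoter), -2.66 (Slc2a5, 13754 bp) and -0.59 (Hnf4a). With GC-corrected ranks, with and without the block, they were -1.28 (Slc5a2, 1914 bp) and -0.12 (Hnf4a), and with all deposited peaks 0.28 (Slc2a2, 39339 bp).

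With 1 library left out, differences that crossed 0 ran from -1.11 to 3.56 (Slc5a2 promoter), -7.00 to 3.88 (Slc5a2, 1914 bp), -3.97 to 8.15 (Slc5a1, 39981 bp), -3.60 to 9.003 (Slc2a2 promoter), -3.32 to 0.90 (Slc2a2, 39339 bp) and -1.88 to 3.87 (Slc2a5, 13754 bp). The deviations of same-numbered libraries had correlations of 0.00819, -0.10 and -0.05. The labels do not say what a shared number marks, and these correlations cannot settle it. The 0 calls under the block are therefore not read as a pairing result.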

Other observations

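The windows also hold promoters of neighbouring genes. The promoter region of Tgfb1i1, a focal adhesion adaptor gene upstream of Slc5a2, ranked at 93.7, 89.8 and 94.5 in the Sham and at 92.3, 91.2 and 88.4 in the UNx group. Inside Slc5a10, on the other strand, the promoter region of Fam83g ranked at 85.6, 90.6 and 93.5 in the Sham and at 85.2, 80.7 and 82.3 in the UNx group. All UNx values there lay below all Sham values, and the difference of -7.15 points did not pass the test (limma unadjusted p = 0.0199, adjusted p = 0.183). A region downstream of Slc2a5 and within 1 kb of the start of Slc2a7 was a peak of UNx 1 (17.2) and UNx 3 (18.6) and of no Sham library.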
